A study of Mus musculus with 2 samples.

Results

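Antioxidant and glutathione genes were examined in the developing pancreas of embryos that overexpress *Mafk*. The set held 53 genes, chosen by name for their function with earlier results of these data known. Of them, 50 were measured among 19938 genes with a value. The measured genes were those with at least 1 probe set that named that gene alone. No probe set of this kind was found for *Prdx5*, *Prdx6* and *G6pdx*, which were not analysed here. *Mafk*-Tg embryos come from lines made by injection into BDF1 eggs and carry mouse *Mafk* cDNA with a FLAG tag behind the rat *Insulin I* promoter on an ICR background, and WT embryos are ICR without the transgene. Whole pancreata were collected at E15.5, and each genotype is represented by 1 array of total RNA. The design text gives 3 embryos per genotype, and whether each array holds their pooled RNA is not stated.

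The transgene is driven in β-cells, which are few in the whole pancreas at this stage, so a response inside β-cells was not measured separately. *Mafk* itself had log2 values of 7.00 in *Mafk*-Tg and 6.75 in WT. Fewer cells of a type and less RNA per cell cannot be told apart in whole tissue. Since a single array stands for each genotype, replicate error is unknown and no test was run. The acinar gene *Cpa1* had log2 values of 13.51 in *Mafk*-Tg and 13.48 in WT, near the top of the range of both arrays. *Xist* had 11.30 in *Mafk*-Tg and 4.40 in WT, and *Eif2s3y*, *Uty* and *Kdm5d* of the Y chromosome had 2.61 to 3.54 in *Mafk*-Tg and 7.46 to 8.29 in WT. Genotype and embryo sex therefore cannot be told apart in these arrays.

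Small MAF proteins such as MAFK bind DNA but have no activation domain of their own. Together with NFE2L2, also called NRF2, they activate antioxidant response elements in the genes of glutathione synthesis, quinone reduction, heme breakdown and NADPH supply. As homodimers, or with the repressor BACH1, they occupy the same elements without activating them. KEAP1 holds NFE2L2 low until oxidants or electrophiles modify it. β-cells are known for low levels of several peroxide-removing enzymes.

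Promoter sequences are shown first for members of the NFE2L2 target class, since the elements that small MAF proteins bind are defined by their letters. RefSeq windows on GRCm38.p6, from 250 bases before to 50 bases after each start site, were found for 45 of the 53 members. No window was used for *Hmox1*, *Gclc*, *Gsr*, *Gsta4*, *Gstt2*, *Sod3*, *Abcc1* and *Prdx6*. The windows were searched on both strands for TGACNNNGC and TGAGNNNGC, which differ at 1 base and cannot start at the same base of 1 strand. Either element was found in 18 of these 45 members, or 40.0%, against 30.8% of the 27025 genes with a window. It was found in 11 of 20 NFE2L2 target members with a window, or 55.0%. With TCA as the inner bases the element lay in 4 members, *Gstp1*, *Srxn1*, *Prdx1* and *Me1*, or 8.89% of members against 0.929% of all genes with a window. A match is a description of letters only.

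*Gstp1* and *Srxn1*, which were lower in *Mafk*-Tg, are given with their whole windows, 5′ to 3′ on the strand of the gene, and capitals mark every match of either element. The *Gstp1* window is chr19:4037863-4038162 on the minus strand and the *Srxn1* window is chr2:152105274-152105573 on the plus strand. In *Gstp1* the match with inner TCA starts 74 bases before the start site, and in *Srxn1* it starts 45 bases before it.
Gstp1: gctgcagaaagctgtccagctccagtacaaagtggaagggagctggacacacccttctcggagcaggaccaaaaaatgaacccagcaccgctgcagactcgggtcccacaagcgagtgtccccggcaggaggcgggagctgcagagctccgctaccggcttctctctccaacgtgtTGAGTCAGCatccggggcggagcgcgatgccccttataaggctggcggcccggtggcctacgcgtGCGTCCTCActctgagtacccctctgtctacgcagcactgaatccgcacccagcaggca
Srxn1: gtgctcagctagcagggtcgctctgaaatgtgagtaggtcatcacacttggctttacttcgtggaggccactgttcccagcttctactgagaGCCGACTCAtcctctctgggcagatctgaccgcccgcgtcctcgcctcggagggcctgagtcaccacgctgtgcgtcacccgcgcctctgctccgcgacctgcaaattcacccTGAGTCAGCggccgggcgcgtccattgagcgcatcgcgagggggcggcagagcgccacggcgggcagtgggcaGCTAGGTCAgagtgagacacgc

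An element of each of 5 other target members is given with 10 bases on each side, in the orientation of the gene, and capitals mark the match. These stretches allow members with like elements and unlike differences to be set side by side. Not shown are a second *Prdx1* match, 16 bases downstream of the start site, and matches in *Gsta3*, *Pgd*, *Taldo1* and *G6pdx*. The log2 differences of *Gsta3*, *Pgd* and *Taldo1* were 0.18, 0.17 and 0.04, and *G6pdx* was not measured. The *Prdx1* stretch is chr4:116685456-116685484 on the plus strand, that of *Me1* is chr9:86695902-86695930 on the minus strand and that of *Gclm* is chr3:122245413-122245441 on the plus strand. The *Txnrd1* stretch is chr10:82859104-82859132 and the *Blvrb* stretch is chr7:27447899-27447927, both on the plus strand.
Prdx1: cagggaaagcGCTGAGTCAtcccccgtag
Me1: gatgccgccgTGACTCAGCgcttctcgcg
Gclm: gctcccgggcGCACCGTCAactctcacga
Txnrd1: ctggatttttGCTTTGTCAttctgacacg
Blvrb: tgactcctccGCCTACTCAtgctctttcc
The log2 difference, *Mafk*-Tg minus WT, was -0.61 for *Gstp1* and -0.30 for *Srxn1*, both at least 1.2-fold lower. The other members with inner TCA lay within 1.2-fold, *Prdx1* at 0.06 and *Me1* at 0.25. Of 17 measured members with either element, 1 was at least 1.2-fold higher and 3 were lower, with a median of 0.04. Of 26 measured members with no element in their windows, 3 were higher and 4 lower, with a median of -0.03. Bases outside the windows were not searched, so these members may hold an element elsewhere. Over all genes 7.96% were higher and 10.5% lower, and of genes at or above the median level 5.58% were higher and 5.87% lower.

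Among the 50 measured members, 5 exceeded 1.2-fold in the direction of *Mafk*-Tg and 8 in the direction of WT, while 37 lay within that range. A 1.2-fold change is 0.26 on the log2 scale and is the cutoff used in the study. Over all genes, 7.96% were higher and 10.5% lower by this measure, 18.4% in either direction. Dim genes passed more often, and 48 of the 50 members were at least as bright as the median probe set. Of these 48 members, 13, or 27.1%, were past 1.2-fold, beside 11.5% of all genes of that brightness. The 5 higher members stand beside 5.58% of such genes and the 8 lower ones beside 5.87%. The members were chosen with earlier results of these data known, so these shares are a description only. Neither of the 2 dimmer members, *Nqo1* and *Sod3*, was past 1.2-fold, beside 27.8% of dimmer genes, 11.1% higher and 16.6% lower. Both were above 0, beside 41.8% of dimmer genes. The members' differences were spread to both sides, with 27 of 50 above 0 beside 44.9% of all genes. The median log2 difference was 0.03 for the members and -0.01 for all genes.

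**Figure D1:**
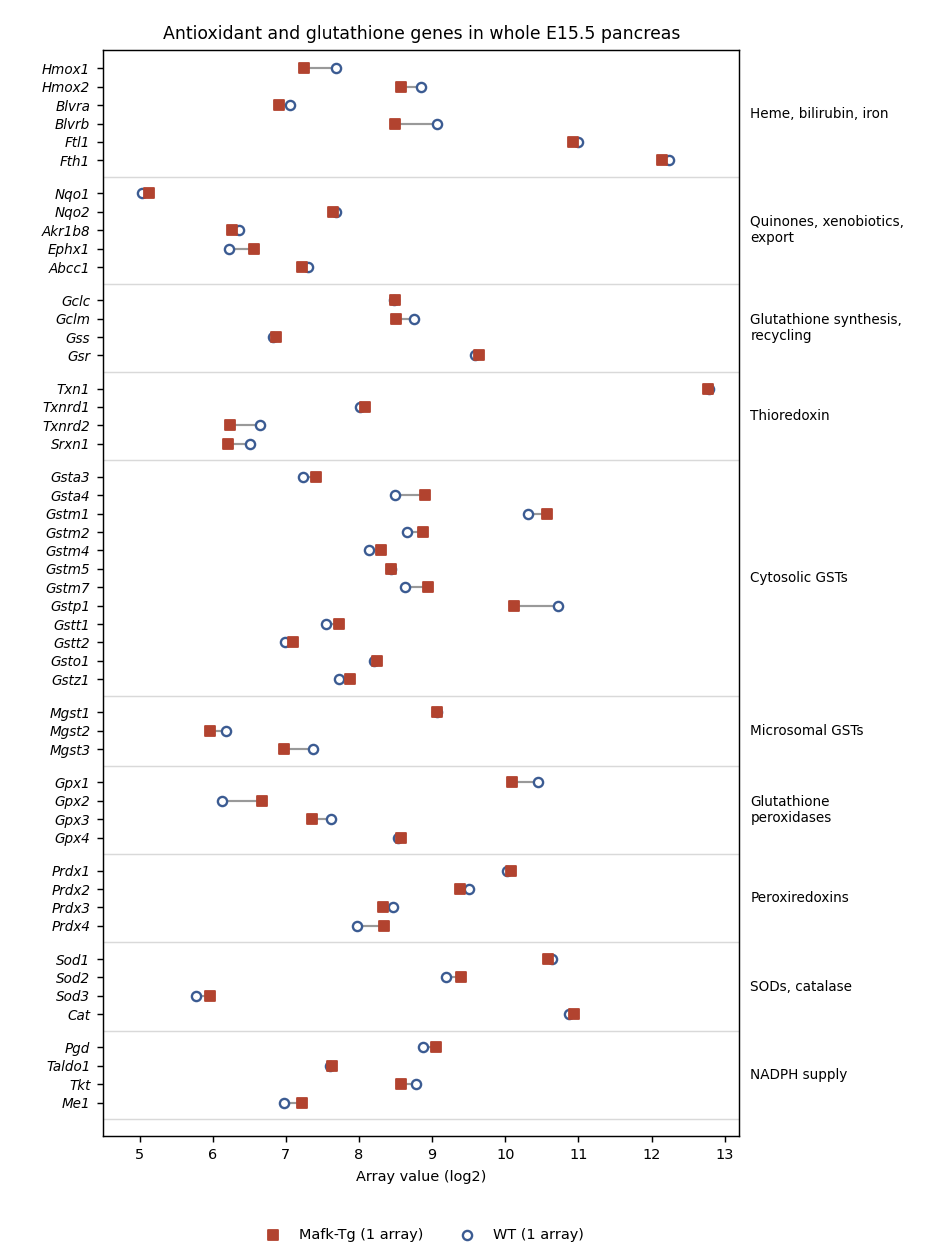
Log2 array values of the 50 measured antioxidant and glutathione genes in *Mafk*-Tg (squares) and WT (circles), 1 array each, a line between the 2 points of a gene and the roles named at the right. Squares lie to the left of circles for every gene of the heme, bilirubin and iron group, and to the right of them for 11 of 12 cytosolic glutathione S-transferases.

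The class of known NFE2L2 targets did not lie to 1 side. Of its 24 measured members, 3 were at least 1.2-fold higher, *Gpx2*, *Gsta4* and *Ephx1*, and 4 were lower, *Gstp1*, *Blvrb*, *Hmox1* and *Srxn1*. The median log2 difference was 0.03, and it was 0.02 for the 26 measured members outside the class, of which 2 were higher and 4 lower. The shares were 12.5% higher and 16.7% lower in the target class, beside 7.96% and 10.5% of all genes. Of the 23 target members at or above the median level 30.4% were past 1.2-fold, beside 11.5% of all genes of that level. *Nqo1*, the quinone reductase gene often used as the readout of NFE2L2, had log2 values of 5.13 in *Mafk*-Tg and 5.03 in WT, both under the median level of the arrays. The *Nqo1* value lay below the level at which most members were measured, and the difference of 0.10 was within 1.2-fold.

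Of the 6 genes of heme breakdown and iron storage, 3 were at least 1.2-fold lower in *Mafk*-Tg and 3 lay within that range, beside 5.87% of genes at or above the median level that were lower. *Hmox1*, the inducible heme oxygenase, had log2 values of 7.25 in *Mafk*-Tg and 7.68 in WT, a difference of -0.43. *Hmox2*, the constitutive heme oxygenase, had 8.58 in *Mafk*-Tg and 8.85 in WT, a difference of -0.28. *Blvrb*, which reduces biliverdin and flavins and is abundant in red blood cells, had 8.49 in *Mafk*-Tg and 9.07 in WT, a difference of -0.58. These 3 were past 1.2-fold, and 0.535% of genes at or above the median level were as low as *Blvrb* or lower. *Blvra*, the main biliverdin reductase, had a log2 difference of -0.16 and lay within it. The ferritin chain genes *Ftl1* and *Fth1* had -0.07 and -0.10. Probe sets that name *Ftl1* together with microRNA genes lay between -0.16 and -0.10. The median of the 6 genes of heme breakdown and iron storage was -0.22. Of these genes 0 of 6 lay above 0, beside 47.3% of genes at or above the median level.

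Markers of blood cells were lower on the same array. Of 17 measured erythroid genes 15 were at least 1.2-fold lower and 0 higher, with a median log2 difference of -0.48 and a range of -1.19 to -0.16. Their summed level on the linear scale was 2685 in *Mafk*-Tg and 3923 in WT. Leukocyte genes were lower in 17 of 20 cases and higher in 0, their median was -0.54, and they had summed levels of 5927 in *Mafk*-Tg and 9335 in WT. By the same cutoff 10.5% of all genes were lower, and 5.87% of genes at or above the median level. Macrophages of blood and tissue express *Hmox1*. In the leukocyte list 19 of 20 genes lay below 0 and 1, *Cd68*, lay above it at 0.01. The macrophage receptor gene *Csf1r* had a log2 difference of -0.31. The part of these cells in the lower heme genes was not tested.

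The members rich in red blood cells differed among themselves. *Prdx2*, an abundant peroxiredoxin of red blood cells, had 9.38 in *Mafk*-Tg and 9.50 in WT, a log2 difference of -0.12 over its 2 probe sets, which gave -0.08 and -0.17. *Cat*, the gene of catalase, which breaks down hydrogen peroxide in peroxisomes and red blood cells, had 10.93 in *Mafk*-Tg and 10.87 in WT, a difference of 0.07. Of the 3, *Blvrb* alone was past 1.2-fold, and it lay below the median of the erythroid list, -0.48. *Cat* and the mean of the 2 *Prdx2* probe sets lay above that list's highest value, -0.16. The *Prdx2* probe set at -0.17 lay just below that value. Without the 3 genes, 5 of 47 members were higher and 7 lower, with a median of 0.04.

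**Figure D2:**
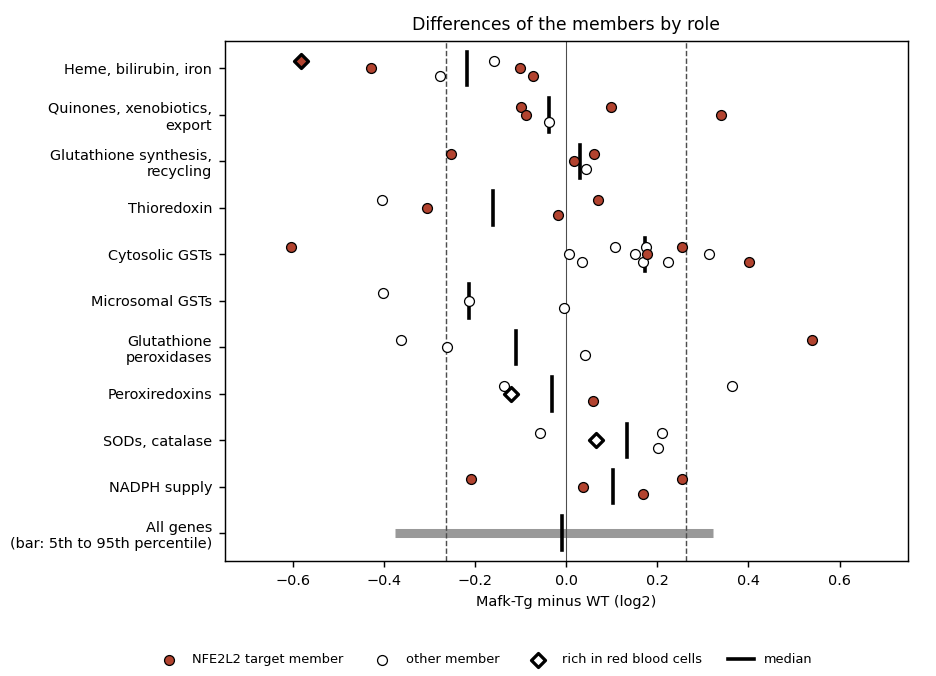
Members plotted by role against their log2 difference, *Mafk*-Tg minus WT, from 1 array each. Red points are NFE2L2 target members, white points are other members, diamonds are the 3 members rich in red blood cells, thick bars are medians, dashed lines mark 1.2-fold and the bar of all genes spans their 5th to 95th percentile. The heme group has a median of -0.22 and the cytosolic glutathione S-transferases have one of 0.17, with *Gstp1* alone far below 0 at -0.61.

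Most cytosolic glutathione S-transferases among the members, which couple glutathione to electrophiles, were above 0, and *Gstp1* was the exception among them. *Gstp1*, the pi class enzyme, had log2 values of 10.12 in *Mafk*-Tg and 10.72 in WT. Its difference of -0.61 was the lowest of all members, a level 1.52-fold higher in WT, and 0.421% of genes at or above the median level were as low or lower. Both probe sets that name *Gstp1* together with its close copy *Gstp2* were also lower, with 7.10 in *Mafk*-Tg and 7.54 in WT for the first and 7.41 in *Mafk*-Tg and 7.87 in WT for the second. All 3 probe sets that name *Gstp1* were thus lower. Those shared with *Gstp2* may measure either gene, so the 3 values are not independent of each other.

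*Gsta4*, the alpha class enzyme that clears the lipid aldehyde hydroxynonenal, had 8.90 in *Mafk*-Tg and 8.50 in WT, a log2 difference of 0.40. *Gsta3*, another alpha class enzyme, had 7.41 in *Mafk*-Tg and 7.24 in WT, a difference of 0.18 and within 1.2-fold. In the mu class, *Gstm7* had 8.94 in *Mafk*-Tg and 8.63 in WT, a difference of 0.31. Of the 5 mu class members, *Gstm7* alone was past 1.2-fold. *Gstm1* had 10.57 in *Mafk*-Tg and 10.31 in WT, a difference of 0.25 that lay just within the cutoff, and *Gstm2*, *Gstm4* and *Gstm5* had 0.22, 0.17 and 0.01. The mu class genes are close copies on chromosome 3, so a probe set of one may also measure another, and their 5 values are not independent of each other. The theta class genes *Gstt1* and *Gstt2* had log2 differences of 0.18 and 0.11, and *Gsto1* of the omega class and *Gstz1* of the zeta class had 0.04 and 0.15. With *Gstp1* included, 11 of the 12 cytosolic members were above 0, beside 47.3% of genes at or above the median level. The median of the 12 was 0.17.

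The glutathione S-transferases are abundant in liver. Of 19 measured hepatocyte genes, 8 were at least 1.2-fold lower and 2, *Ttr* and *Rbp4*, were higher, with a median of -0.18. Over all genes 10.5% were lower and 7.96% higher. *Alb*, the albumin gene, had log2 values of 10.66 in *Mafk*-Tg and 11.23 in WT. Acinar genes had a median of 0.19 and 15 of 17 above 0, and genes of duct and trunk epithelium had 0.14 and 9 of 10 above 0. Endocrine genes had a median of 0.27, with 14 of 17 above 0, 9 at least 1.2-fold higher and 2 lower. The 2 lower ones were the insulin gene *Ins2* at -0.40 and *Chga* at -0.32, and *Ins1* was not measured. The part of the hepatocyte, epithelial and endocrine share of the tissue in the values of the transferases was not tested.

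The 3 microsomal transferases, which sit in membranes and also act on lipid peroxides, were at or below 0. *Mgst3* had 6.97 in *Mafk*-Tg and 7.37 in WT, a log2 difference of -0.40. *Mgst2* had 5.97 in *Mafk*-Tg and 6.18 in WT, a difference of -0.21. *Mgst1* had 9.06 in *Mafk*-Tg and 9.07 in WT, a difference of -0.01. Only *Mgst3* was past 1.2-fold.

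The glutathione peroxidases, selenoenzymes that reduce peroxides with glutathione, differed among themselves. *Gpx2*, the peroxidase of gut epithelium and a known NFE2L2 target, had 6.67 in *Mafk*-Tg and 6.13 in WT, and its difference of 0.54 was the highest of all members, or 1.45-fold. *Gpx1*, the abundant cytosolic peroxidase, had 10.09 in *Mafk*-Tg and 10.45 in WT, a difference of -0.36. *Gpx3*, the secreted plasma peroxidase, had 7.36 in *Mafk*-Tg and 7.62 in WT, a difference of -0.26 that lay just within 1.2-fold. *Gpx4*, which repairs membrane lipid peroxides and guards against ferroptosis, had 8.57 in *Mafk*-Tg and 8.53 in WT. *Gpx2* and *Gpx1* were thus past the cutoff in opposite directions, and the 2 probe sets of *Gpx4* gave 0.03 and 0.05. *Gpx1* is also abundant in red blood cells, whose markers were lower on the same array, and the part of these cells was not tested.

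**Figure D3:**
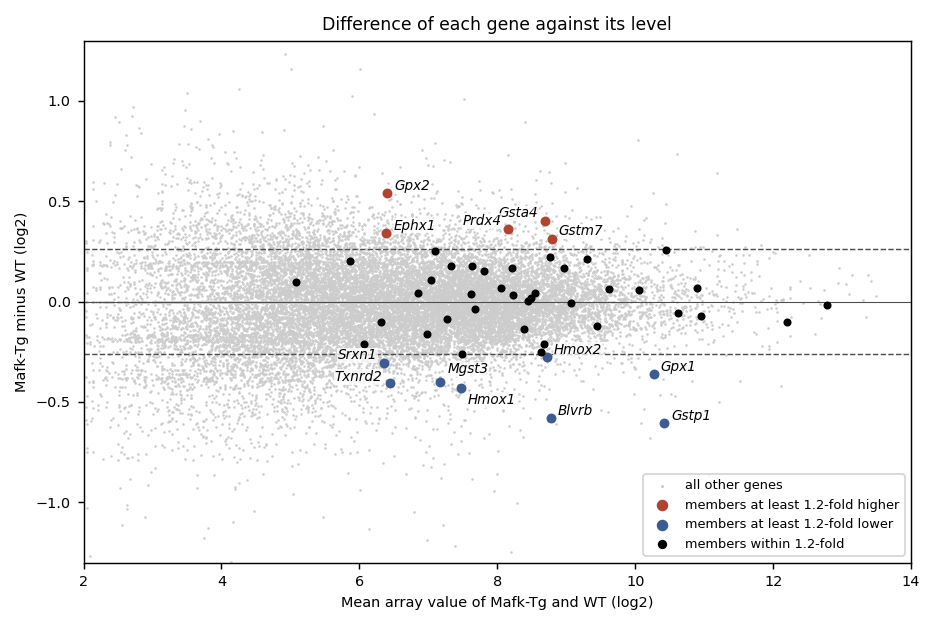
Log2 difference, *Mafk*-Tg minus WT, against the mean log2 value of both arrays for each gene, with 1 array per genotype. Members at least 1.2-fold higher or lower are named, dashed lines mark 1.2-fold, and 94 genes outside the axes are not drawn. *Gstp1* at -0.61 and *Gpx2* at 0.54 lie farthest from 0 among the members.

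Glutathione synthesis and recycling differed little. *Gclc*, the catalytic subunit of the rate-limiting ligase, had 8.50 in *Mafk*-Tg and 8.48 in WT, a log2 difference of 0.02. *Gclm*, its modifier subunit, had 8.51 in *Mafk*-Tg and 8.76 in WT, a difference of -0.25 that lay just within 1.2-fold. The 2 subunits of 1 enzyme therefore had unlike values. *Gss*, the synthetase of the second step, had a difference of 0.04, and *Gsr*, which reduces oxidised glutathione with NADPH, had 0.06. None of the 4 was past the cutoff.

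In the thioredoxin system, which reduces protein disulfides and supplies peroxiredoxins, 2 of 4 were at least 1.2-fold lower. All 4 were at or above the median level, where 5.87% of genes were lower. *Txnrd2*, the mitochondrial thioredoxin reductase, had 6.24 in *Mafk*-Tg and 6.64 in WT, a log2 difference of -0.40. *Srxn1*, sulfiredoxin, which restores overoxidised peroxiredoxins, had 6.21 in *Mafk*-Tg and 6.51 in WT, a difference of -0.30. The cytosolic reductase *Txnrd1* had 8.08 in *Mafk*-Tg and 8.01 in WT, a difference of 0.07, and its partner *Txn1*, thioredoxin, had 12.76 in *Mafk*-Tg and 12.78 in WT, a difference of -0.02. The cytosolic reductase and thioredoxin thus lay within 1.2-fold.

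Of the 4 measured peroxiredoxins, which reduce peroxides through cysteines, *Prdx4* was higher and the others were within 1.2-fold. *Prdx4*, the peroxiredoxin of the endoplasmic reticulum that contributes to disulfide formation, had 8.34 in *Mafk*-Tg and 7.98 in WT, a log2 difference of 0.36. *Prdx4* lies on the X chromosome. *Kdm6a*, an X-linked gene known to escape X inactivation, had 8.87 in *Mafk*-Tg and 8.26 in WT, and X-linked genes as a whole were not examined. Whether embryo sex has a part in the *Prdx4* value was not tested. *Prdx1*, a cytosolic peroxiredoxin, had a difference of 0.06 and *Prdx3*, of mitochondria, had -0.14.

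Superoxide dismutases and NADPH-supplying enzymes stayed within 1.2-fold. *Sod1*, the cytosolic dismutase, had a log2 difference of -0.06. *Sod2*, the mitochondrial dismutase, had 9.40 in *Mafk*-Tg and 9.19 in WT, a difference of 0.21, and *Sod3*, the extracellular one, had 0.20 at a level under the median of the arrays. Among the NADPH suppliers, *Me1*, malic enzyme, had 7.22 in *Mafk*-Tg and 6.97 in WT, a difference of 0.25 with 0.28 and 0.23 from its 2 probe sets. The first of these 2 probe sets was past the cutoff and the second was not. In the pentose phosphate pathway *Pgd* had 0.17, *Taldo1* 0.04 and *Tkt* -0.21.

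Enzymes that act on quinones and xenobiotics included 1 member past 1.2-fold. *Ephx1*, the microsomal epoxide hydrolase, had 6.56 in *Mafk*-Tg and 6.22 in WT, a log2 difference of 0.34. *Nqo2*, *Akr1b8*, an aldo-keto reductase, and *Abcc1*, the exporter of glutathione conjugates, had differences of -0.04, -0.10 and -0.09. They lay within the cutoff, as did *Nqo1*.

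Other genes of the same pathways were taken from a wider list. Of 48 measured, 5 were at least 1.2-fold higher and 3 lower, with a median log2 difference of 0.02. The share past 1.2-fold was 16.7%, beside 18.4% of all genes. Of the 38 at or above the median level 15.8% were past it, beside 11.5% of all genes of that level. The genes named from this list are given for their values only. *Glrx*, cytosolic glutaredoxin, had 7.23 in *Mafk*-Tg and 7.82 in WT, a difference of -0.59 and the largest of the list. *Oplah*, the 5-oxoprolinase of glutathione turnover, and the methionine sulfoxide reductase *Msra* had -0.35 and -0.34. Among the higher genes, *Gpx7*, a peroxidase of the endoplasmic reticulum, had 6.53 in *Mafk*-Tg and 6.15 in WT, a difference of 0.38. *Glrx3*, which acts in iron sulfur cluster delivery, had 0.33. The regulators listed were the genes of factors that bind the elements and, in addition, *Keap1*, and 9 of these 10 lay within 1.2-fold: *Nfe2l2* had -0.12, *Keap1* -0.09, *Bach1* -0.02 and *Mafk* 0.25, while *Nfe2*, the family member of red cell and platelet precursors, had 6.15 in *Mafk*-Tg and 6.80 in WT, a difference of -0.65. *Nfe2* was thus past the cutoff, beside an erythroid list whose median was -0.48.

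**Figure D4:**
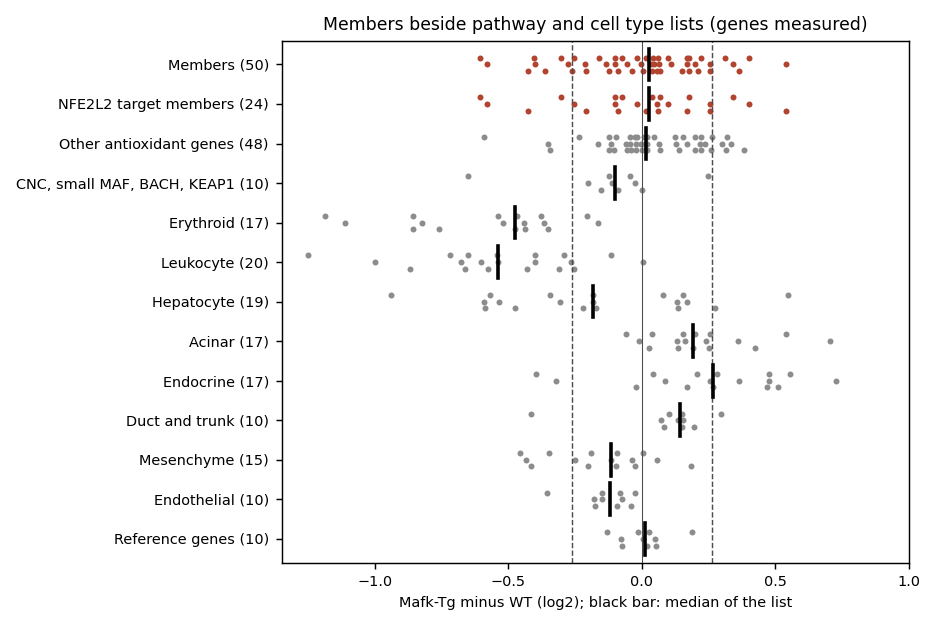
Members, pathway lists and cell type lists by log2 difference, *Mafk*-Tg minus WT, from 1 array each, with genes as points and medians as black bars, the number measured in brackets and dashed lines at 1.2-fold. The medians of the members and of the NFE2L2 target members, both 0.03, lie near that of the reference genes at 0.01, and the erythroid and leukocyte lists have -0.48 and -0.54.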

How the data were processed

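Total RNA of whole pancreata was hybridised to Affymetrix MoGene arrays, 1 for each genotype. According to the submitters' processing notes, the authors used Affymetrix Expression Console, with its algorithm and version not given in the sources used here. Values as deposited were on a log2 scale, the array medians being 6.01 in *Mafk*-Tg and 6.01 in WT, and were not normalized again. Of 35556 probe sets, 21789 had exactly 1 symbol in the platform's gene table, 1621 had several and 12146 had none. Symbols were updated through gene identifiers in the RefSeq table. A gene's value was the mean of its probe sets with exactly 1 symbol, and 999 genes had more than 1. Differences are *Mafk*-Tg minus WT, and the number of arrays limits their precision.

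The members, lists, roles and alternatives were chosen with earlier results of these data known. Members past 1.2-fold, NFE2L2 targets, members rich in red blood cells, the extremes of each role and up to 5 genes of each other list were to be named, and further members and marker genes were named after their values were seen. The promoter elements were also chosen after values were seen. Alternatives were equal medians, quantile normalization, a loess with a span of 0.3, no probe sets below the median level, the brightest probe set, cutoffs of 0.202 on the log2 scale and of 1.5-fold, and leaving out members rich in red blood cells or X-linked. Counts were called the same within 1.5 times, list medians within 0.05, and single genes within the robust SD over the 2000 genes nearest in level. The scripts were tested on simulated data for recovering differences of known size, which gives no error rate for the calls. Scripts ran under Python 3.11.15 with pandas 2.3.3 and numpy 2.4.6, the loess came from statsmodels 0.14.6 and the plots from matplotlib 3.10.9.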

Additional observations from a re-analysis of the deposited data

How the results depend on the processing

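Each genotype has 1 array, so the error between animals is unknown. No paired analysis was possible because there is no second array of either genotype. The counts depended on the cutoff. At 1.5-fold, 0 members were higher and 1, *Gstp1*, was lower, and among NFE2L2 target members 0 were higher and 1 lower. At a cutoff of 0.202 on the log2 scale, 9 members were higher and 12 lower, and 5 target members were higher and 6 lower. The shares of all genes past these other cutoffs were not computed, so the counts cannot be set beside them. Under equal medians, quantile normalization, the loess, the median level filter and the brightest probe set, all 13 members past 1.2-fold remained past it in the same direction. Only *Gpx3* crossed it, under equal medians. No single member moved by more than 0.05 on the log2 scale in these settings, and none changed sign among those past the cutoff. With both probe sets shared with *Gstp2* included, a choice made after the values were seen, *Gstp1* had a log2 difference of -0.50. Differences of *Nqo1* and *Sod3*, below the median level, are the least certain, since the robust SD of the difference was 0.24 there and 0.15 at or above it.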

Other observations

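Grouped by place in the cell, a grouping made after the values were seen, enzymes of the endoplasmic reticulum and of mitochondria each held unlike values. In the endoplasmic reticulum, *Prdx4* and *Gpx7* had log2 differences of 0.36 and 0.38, while *Gpx8*, a related peroxidase of the same compartment, had values of 10.15 in *Mafk*-Tg and 10.14 in WT, a difference of 0.01. In mitochondria, *Txnrd2* had -0.40, but its substrate *Txn2* had 0.02, *Prdx3* had -0.14 and *Sod2* had 0.21. The mu class genes outside the member list, *Gstm3* and *Gstm6*, had log2 differences of 0.22 and 0.32, the second at a level below the median of the arrays. Among further transferase genes outside that list, *Gstt3* had 0.07, *Gstk1* -0.02 and *Gsto2* -0.16, the last also below that median. Among glutaredoxins, *Glrx* had -0.59, *Glrx2* 0.16, *Glrx3* 0.33 and *Glrx5* -0.06.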
